A study of Mus musculus with 24 samples.

Results

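The middle reading frame of mouse Selenop, codons 131 to 272, was examined as 426 single nucleotide positions (545 to 970) of the 2096 positions listed for the mRNA, that is 142 of the 378 codons covered by ribosomes. Its bounds were chosen by codon number, with the start codon at nucleotides 155 to 157 of the mRNA, and with earlier results of these same counts known. Densities that compare the whole stretch between groups are therefore given as a description, with no test. The scales were taken from other stretches of the same mRNA: codons 7 to 53 (nucleotides 173 to 313), upstream of the first selenocysteine codon, and codons 59 to 130 (nucleotides 329 to 544), which begin with the codon taken as that first UGA. The later UGA codons were not located here.

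Selenop encodes selenoprotein P (ENSMUSG00000064373.12), which the liver secretes into plasma and which carries selenium to other tissues. Its reading frame holds several UGA codons that are read as selenocysteine instead of as stop signals, and the selenocysteines after the first lie toward the carboxyl end of the protein. Recoding depends on SECIS elements, RNA structures in the 3′UTR that recruit the SECIS-binding protein and the selenocysteine elongation factor with its tRNA. Selenop carries a pair of them, SECIS1 and SECIS2. A ribosome found in the middle frame has passed the codon taken as the first UGA.

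Liver of C57Bl6 mice on standard chow was profiled in 2 lines, one with a genomic deletion of SECIS1 and the other with a genomic deletion of SECIS2, each beside wild type mice of its own line. The SECIS1 line gave 3 wild type and 2 deletion libraries with a group, and the SECIS2 line gave 3 of each. A further library entered no comparison, because its title names no group, although its column heading reads Secis1 Del. The SECIS1 deletion therefore rests on 2 libraries, and no comparison was made with the further one included. Age, sex and zygosity were not given in the sources used here. The deletions are germline changes in whole liver, so the cell types of the liver are not separated, and with a single mRNA in the tables no liver marker could be checked. Fewer cells of a type and less RNA per cell cannot be told apart in such bulk samples. Whether libraries of a group stem from separate animals is not in the labels, so the spread behind each p-value may be technical. The library numbers begin with 10880 in the SECIS1 line and with 11077 in the SECIS2 line, and the labels do not say what these mean. Line and library number series cannot be told apart.

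Total A-site counts on the mRNA, which place each footprint at the nucleotide of its ribosomal A site, ran from 17585 to 66070 per grouped library, and 3350 to 13461 of them lay in the middle frame. That gave 23.6 to 94.8 counts per codon. The share of all counts that fell in the middle frame was 20.4%, 17.7% and 19.5% in SECIS1 wild type, 33.5% and 28.9% in the SECIS1 deletion, 14.7%, 19.1% and 28.4% in SECIS2 wild type, then 16.2%, 18.7% and 16.7% in the SECIS2 deletion. Exact Clopper-Pearson 95% intervals on these shares, which cover counting error only, were widest in SECIS1 deletion 2, from 32.9% to 34.1%. Both SECIS1 deletion libraries lay above all SECIS1 wild type libraries in this share. The share also rises when counts elsewhere on the mRNA fall. Downstream of the middle frame, edgeR called 37 codons lower with the SECIS1 deletion, with upstream counts as library size. Over the whole covered frame it called 38 of 258 tested codons lower (14.7%). Whether these calls and the higher share are linked was not tested. On the scales given below, the log2 change in the middle frame was 0.13 (upstream density), -0.16 (density of codons 59 to 130) and 0.26 (the authors' ratio). SECIS2 wild type 3 stood apart from its group, with 28.4% of its counts in the middle frame. It also had the lowest share of counts in the first position of the codon, and the main values are also given without it.

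Ribosomes were spread unevenly over the middle frame, and the pattern was much alike in all groups. Of the 426 positions, 185 held a count in all 11 grouped libraries and 29 held none in any. Of the 142 codons, 114 held a count in every grouped library and 3 in none. On average over the grouped libraries, 15 codons reached the mean count of an upstream codon and 42 lay under 0.05 of it. The share of middle frame counts on the 10 highest codons of a library was 33.9%, 37.0% and 39.4% in SECIS1 wild type, 38.5% and 38.1% in the SECIS1 deletion, 36.2%, 45.4% and 45.1% in SECIS2 wild type, then 42.6%, 45.8% and 43.6% in the SECIS2 deletion. These shares overlapped between each deletion and its wild type, and a permutation test on so few libraries allows no p below 0.1. They differed by 1.51 percentage points in the SECIS1 line (exact two-sided permutation p = 0.6) and by 1.80 percentage points in the SECIS2 line (exact permutation p = 0.8; 3.23 points without SECIS2 wild type 3).

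The log2 count per codon, with 1 count added, was compared between libraries over the 142 codons as a description of likeness. Pearson's r ran from 0.868 to 0.963 with a median of 0.932 over the 10 pairs within a group. Between a deletion and the wild type of its line it ran from 0.882 to 0.965, with a median of 0.911 over 15 pairs. Between the lines it ran from 0.867 to 0.936, with a median of 0.917 over 30 pairs. The codons share their sequence, their mappability and the footprint protocol in all libraries. The spread between libraries of a group exceeded counting noise. The chi-square per degree of freedom over codons was lowest, 1.48, for SECIS2 deletion 2 and 3. It was highest, 16.3, for SECIS2 wild type 1 and 3. This value also grows with the number of counts, so it does not rank pairs by likeness.

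**Figure D1:**
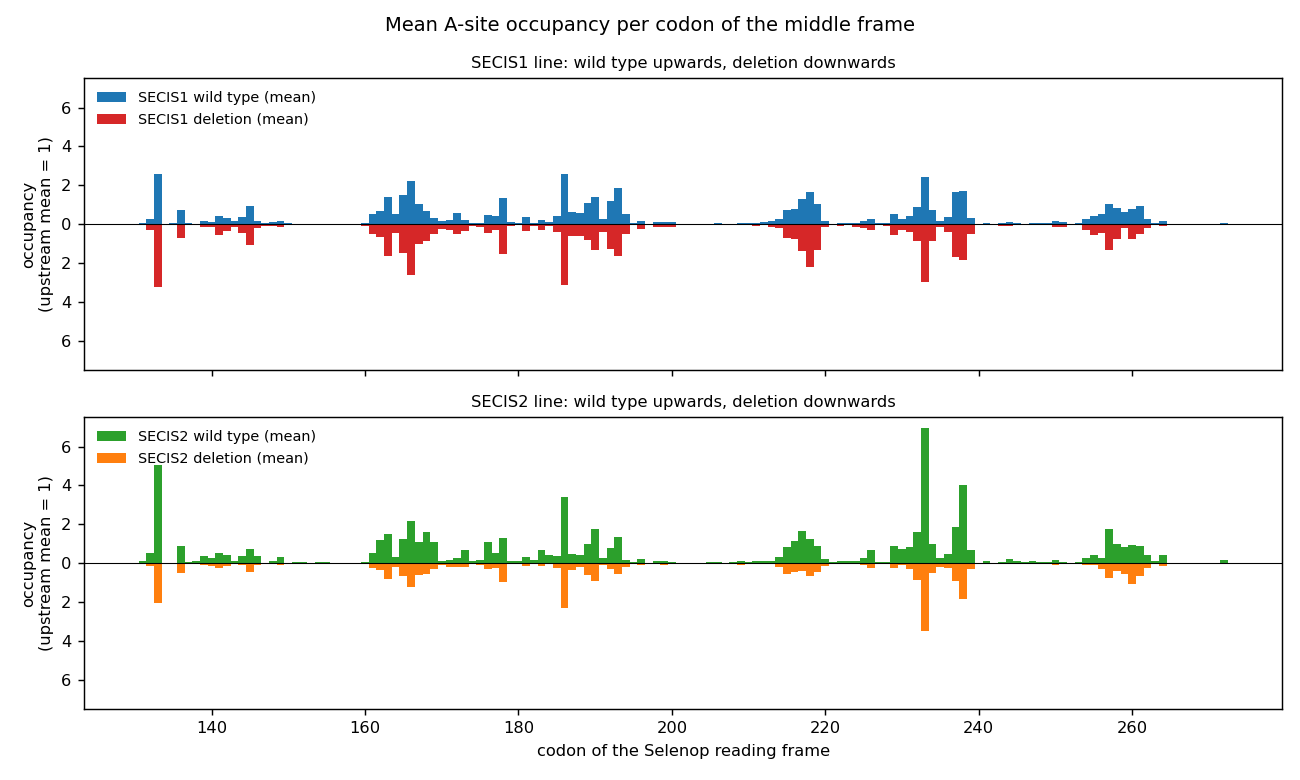
Mean occupancy of each codon of the middle frame (vertical axis, linear, count over the mean count of an upstream codon in the same library) against codon number, with the wild type mean drawn upwards and the deletion mean downwards, for the SECIS1 line (top) and the SECIS2 line (bottom). The same codons stand high and low in all 4 groups, with the tallest bar at codon 233 of SECIS2 wild type, and the SECIS2 deletion bars are shorter than those of its wild type over most of the stretch.

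In wild type libraries 8 codons were named for the highest mean occupancy, where occupancy is the count on a codon over the mean count of an upstream codon of the same library. They were codons 233, 133, 186, 238, 166, 237, 193 and 190, and their mean occupancy over the 6 wild type libraries ran from 1.56 to 4.68. Because this choice rested on wild type values, changes of a deletion against wild type at these codons are biased downward. Their tests against the same wild type libraries are not independent of the choice. Codons 233, 237 and 238 lie close together. The reference tables used here hold no transcript of Selenop, so the codons and amino acids at these places are not named.

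Codon 233, which begins at nucleotide 851, held 414, 475 and 342 counts in SECIS1 wild type, 389 and 324 in the SECIS1 deletion, 297, 399 and 963 in SECIS2 wild type, then 299, 544 and 397 in the SECIS2 deletion. Its occupancy was 1.44, 2.96 and 2.83 in SECIS1 wild type, 3.10 and 2.88 in the SECIS1 deletion, 3.57, 9.89 and 7.37 in SECIS2 wild type, then 2.31, 3.95 and 4.26 in the SECIS2 deletion. All 3 SECIS2 wild type libraries lay above all 3 SECIS1 wild type libraries, while each deletion overlapped its own wild type. SECIS1 wild type minus SECIS2 wild type was -1.52 in log2 (SE 0.39, edgeR adjusted p = 0.0347), a comparison that also holds line and library number series. The log2 change was 0.31 (SE 0.42, adjusted p = 0.948) with the SECIS1 deletion and -0.98 (SE 0.38, adjusted p = 0.0524) with the SECIS2 deletion. With the replicate number as a block, the SECIS2 value was -0.91 (adjusted p = 0.0136) and passed the threshold of 0.05. Without SECIS2 wild type 3 the SECIS2 value was -0.93 and the wild type difference -1.48, while the wild type call was lost without SECIS1 wild type 1 (-1.26), SECIS1 wild type 2 (-1.70) or SECIS2 wild type 2 (-1.19).

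Codon 133, near the start of the stretch, held 394, 486 and 395 counts in SECIS1 wild type, 362 and 405 in the SECIS1 deletion, 374, 273 and 501 in SECIS2 wild type, then 305, 276 and 174 in the SECIS2 deletion. Occupancy was 4.50, 6.76 and 3.84 in SECIS2 wild type against 2.36, 2.0 and 1.87 in the SECIS2 deletion, with no overlap. It fell with the SECIS2 deletion by 1.27 in log2 units (SE 0.35, edgeR adjusted p = 0.0114). With the SECIS1 deletion the log2 value was 0.35 (SE 0.38, adjusted p = 0.891).

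SECIS2 wild type had 283, 213 and 450 counts on codon 238 and the SECIS2 deletion had 191, 302 and 170, and its occupancy of 3.40, 5.28 and 3.45 in wild type stood above 1.48, 2.19 and 1.82 in the deletion. It fell by 1.14 in log2 units (SE 0.30, edgeR adjusted p = 0.00957). Codon 193 fell by 1.23 (SE 0.31, adjusted p = 0.00829), codon 237 by 1.04 (SE 0.30, adjusted p = 0.0145) and codon 190 by 0.91 (SE 0.34, adjusted p = 0.0475) with the same deletion. Codons 186 and 166 did not pass, at -0.56 (SE 0.31, adjusted p = 0.160) and -0.82 (SE 0.33, adjusted p = 0.0546). All of these falls are on the upstream scale, where the median log2 change over the tested codons of the middle frame was -1.12. With the counts of codons 59 to 130 as library size, the same SECIS2 values were -0.03 at codon 133, 0.14 at codon 238, 0.02 at codon 193, 0.23 at codon 237 and 0.33 at codon 190, and none was called. With 1 library left out, codons 238 and 193 passed in every case. Codons 133 and 237 did not pass without SECIS2 wild type 2 (-1.0 and -0.86) or SECIS2 deletion 2 (-1.25 and -0.99). Codon 190 did not pass without SECIS2 wild type 2 (-0.92) or 3 (-0.71), or without SECIS2 deletion 1 (-0.87), 2 (-0.94) or 3 (-0.91). None of the 8 codons passed the test in the SECIS1 line, where their log2 values ran from -0.18 at codon 193 to 0.35 at codon 133.

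There were 3 runs of at least 5 codons that each averaged under 0.05 of an upstream codon, a definition made after the values were seen. Codons 150 to 159 (nucleotides 602 to 631) held 233 counts in all grouped libraries together, 9 to 44 per library, with a mean occupancy of 0.00695 to 0.0421. Codons 201 to 208 (nucleotides 755 to 778) held 146 counts, 5 to 28 per library, and codons 265 to 271 (nucleotides 947 to 967) held 77 counts, 2 to 14 per library. Mean occupancy there was 0.00483 to 0.0226 and 0.00228 to 0.0169. Whether fewer footprints form, map or are kept at these codons cannot be told apart in these tables.

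The edges of the stretch were set by codon number. Codon 131, the first inside, held 12, 9 and 6 counts in SECIS1 wild type, 6 and 8 in the SECIS1 deletion, 3, 7 and 12 in SECIS2 wild type, then 3, 6 and 1 in the SECIS2 deletion. Codon 130, just outside, held 13, 10 and 4, then 5 and 5, then 4, 1 and 11, then 6, 7 and 5 counts in the same groups. At the far edge, codon 272 held 14, 8 and 7 counts in SECIS1 wild type, 2 and 5 in the SECIS1 deletion, 30, 3 and 4 in SECIS2 wild type, then 2, 7 and 3 in the SECIS2 deletion. Codon 273, just outside, held 33, 43 and 44, then 13 and 20, then 43, 21 and 64, then 15, 18 and 20 counts. Counts were low on both sides of the first edge, and at the far edge they were higher outside than inside in every grouped library.

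With upstream codons as the scale, density in the middle frame differed by no more than the spread between libraries without SECIS1 and was lower without SECIS2. The ratio of middle frame to upstream density was 0.330, 0.433 and 0.388 in SECIS1 wild type and 0.439 and 0.399 in the SECIS1 deletion. It was 0.508, 0.585 and 0.477 in SECIS2 wild type, against 0.223, 0.261 and 0.278 in the SECIS2 deletion. The SECIS1 groups overlapped, and all 3 SECIS2 deletion libraries lay below all other grouped libraries. SECIS1 wild type averaged 0.384 ± 0.0518 (SD, n = 3) and its deletion 0.419 ± 0.0282 (SD, n = 2), a log2 change of 0.13 (SE 0.13). SECIS2 wild type averaged 0.523 ± 0.0554 (SD, n = 3) and its deletion 0.254 ± 0.0277 (SD, n = 3), a log2 change of -1.04 (SE 0.13) or 2.06-fold lower. The change with the SECIS1 deletion minus the change with the SECIS2 deletion was 1.18 (SE 0.18). Without SECIS2 wild type 3, the SECIS2 value was -1.11 and the difference between the wild types -0.52. The wild types also differed, SECIS1 wild type standing 1.37-fold lower than SECIS2 wild type with no overlap (log2 -0.45, SE 0.14), a contrast that holds line and library number series.

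With codons 59 to 130 as the scale, the groups overlapped in both lines. The ratio of middle frame density to density in that earlier stretch was 0.501, 0.509 and 0.664 in SECIS1 wild type and 0.574 and 0.425 in the SECIS1 deletion. It was 0.424, 0.574 and 0.516 in SECIS2 wild type, against 0.416, 0.621 and 0.756 in the SECIS2 deletion, the group with the widest spread. The log2 change was -0.16 (SE 0.25) in the SECIS1 line and 0.21 (SE 0.28) in the SECIS2 line, or 0.23 without SECIS2 wild type 3. The SECIS1 value turned to 0.05 without SECIS1 deletion 3. Each of these changes was smaller than its SE, so on this scale a moderate change in either direction could not be detected. This earlier stretch was itself lower against upstream codons with the SECIS2 deletion. In SECIS2 wild type it held 7161, 2958 and 8694 counts beside 3907, 1897 and 6139 upstream. In the SECIS2 deletion it held 5001, 4166 and 2463 beside 6082, 6472 and 4379. With upstream counts as library size, edgeR called 35 codons before the middle frame lower with that deletion, and 3 higher over the covered frame. A fall shared by both stretches is removed by this scale.

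The authors' deposited ratio scales A-site counts to all mapped footprints and to Selenop RNA, and not to another stretch of the frame. Summed over the middle frame it was 0.0849, 0.0818 and 0.0955 in SECIS1 wild type and 0.110 and 0.0992 in the SECIS1 deletion, where both libraries lay above the wild type. It was 0.0750, 0.0866 and 0.0689 in SECIS2 wild type, against 0.0357, 0.0385 and 0.0460 in the SECIS2 deletion, with no overlap. The means were 0.0874 ± 0.0072 (SD, n = 3) and 0.105 ± 0.00795 (SD, n = 2), or 1.20-fold higher with the SECIS1 deletion (log2 0.26, SE 0.10). For SECIS2 they were 0.0768 ± 0.00901 (SD, n = 3) and 0.0401 ± 0.00534 (SD, n = 3), or 1.92-fold lower with the deletion (log2 -0.94, SE 0.15), and the log2 value was -1.02 without SECIS2 wild type 3. On this scale the wild types of both lines overlapped (log2 0.19, SE 0.12).

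**Figure D2:**
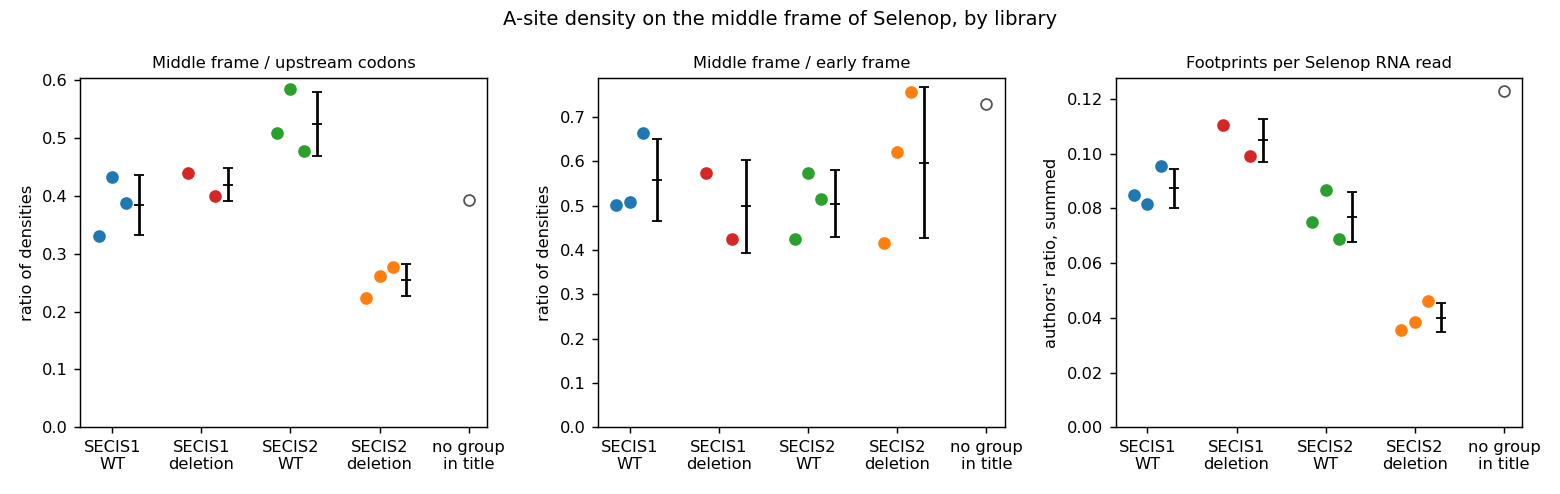
Middle frame values of every library on 3 scales: density over upstream density, density over that of codons 59 to 130, and the authors' ratio summed over the middle frame (linear axes). Points are libraries, tick marks with error bars are group means with the SD, and the open circle is the library with no group; the SECIS2 deletion lies apart on the first and last scales (0.223 to 0.278 against 0.477 to 0.585 on the first) and overlaps its wild type on the other.

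Windows of 10 codons showed where along the stretch the density differed. The log2 difference between SECIS2 deletion and wild type means ran from -1.76 in codons 221 to 230 to -0.67 in codons 261 to 270. The deletion lay below wild type with no overlap in 11 of the 14 full windows, beside 62.2% of the 37 such windows of the whole covered frame. Those 37 include the 14 of the middle frame and windows of the upstream codons that set the scale. The groups overlapped in codons 201 to 210, 251 to 260 and 261 to 270. The highest window, codons 231 to 240, which holds the high codons 233, 237 and 238, had a mean occupancy of 1.61, 2.2 and 1.5 in SECIS2 wild type, against 0.712, 0.924 and 0.958 in the SECIS2 deletion. In SECIS1 wild type that window stood at 0.735, 0.960 and 0.905, below all SECIS2 wild type libraries.

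In the SECIS1 line the window differences ran from 0.30 in codons 131 to 140 to -0.79 in codons 261 to 270. The last full window held 0.105, 0.188 and 0.148 in wild type, against 0.0765 and 0.0898 in the deletion, the only 1 of the 14 with no overlap in the lower direction, beside 29.7% over the covered frame. Codons 271 and 272 after it stood at 0.0296, 0.0281 and 0.0497 in wild type, against 0.00797 and 0.0222 in the deletion, on few counts. The other windows of the SECIS1 line lay between -0.13 and 0.30, and their libraries overlapped.

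**Figure D3:**
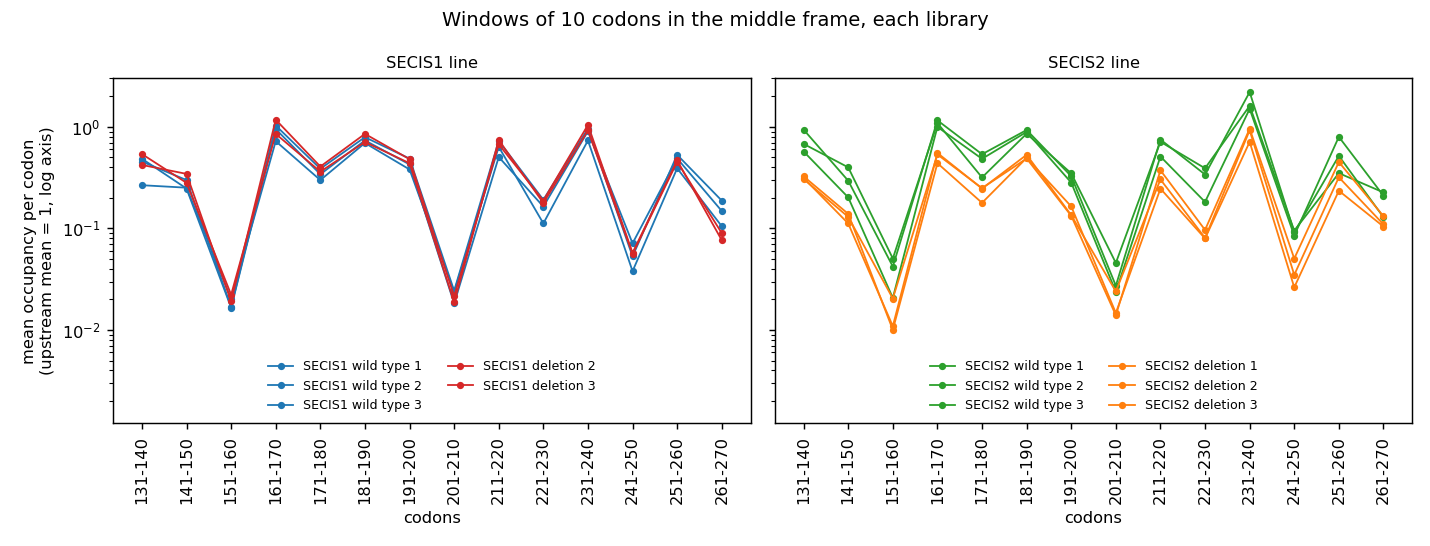
Mean occupancy in windows of 10 codons along the middle frame (log axis, upstream mean = 1) for each library of the SECIS1 line (left) and the SECIS2 line (right). The SECIS1 deletion follows its wild type until codons 261 to 270 (0.0765 and 0.0898 against 0.105 to 0.188), and the SECIS2 deletion runs below its wild type in most windows.

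The ratio of later to earlier counts within the stretch overlapped between each deletion and its wild type. A permutation test on these libraries allows no p below 0.1 in either line. It could therefore not decide whether a deletion changed this ratio. The ratio of counts in the later 71 codons (202 to 272) to the earlier 71 codons (131 to 201) was 0.775, 0.772 and 0.721 in SECIS1 wild type and 0.683 and 0.766 in the SECIS1 deletion. It was 0.926, 0.961 and 0.960 in SECIS2 wild type, against 0.810, 0.945 and 1.12 in the SECIS2 deletion. The log2 difference was -0.06 (SE 0.09, exact two-sided permutation p = 0.5) in the SECIS1 line and 0.00 (SE 0.14, exact permutation p = 1) in the SECIS2 line. Each of the SECIS1 wild type libraries lay below all SECIS2 wild type libraries, a log2 difference of -0.33 (SE 0.04). Its exact permutation p of 0.1 is the smallest that 3 against 3 libraries allow, and it too holds line and library number series.

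Counts kept the 3-nucleotide phase of translation. The share of middle frame counts in the first position of a codon was 54.3%, 56.9% and 58.5% in SECIS1 wild type, 60.3% and 57.0% in the SECIS1 deletion, 58.6%, 62.6% and 44.9% in SECIS2 wild type, then 56.1%, 59.1% and 56.1% in the SECIS2 deletion. SECIS2 wild type 3 was the lowest of all. The differences of 2.06 percentage points in the SECIS1 line (exact permutation p = 0.4) and 1.76 in the SECIS2 line (exact permutation p = 0.9) were within the spread, and the SECIS2 value was -3.49 without that library. Over the 12 exact permutation tests made on this ratio, the phase and the 10 highest codons, every Benjamini-Hochberg adjusted p was 1.

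Single codons were tested with edgeR over the whole covered frame, with upstream counts as library size. Of the 142 codons of the middle frame, 104 passed the filter on low counts. With the SECIS2 deletion 50 of these (48.1%) were called lower and 0 higher at an adjusted p of 0.05, beside 36.8% lower and 1.16% higher of the 258 codons tested. At an unadjusted p under 0.05, 63 were lower and 0 higher. The 258 include the 104 themselves and codons of the upstream stretch, whose summed counts set the scale. On average those upstream codons are held near no change by construction, so the share over all codons is no independent background. The median log2 change was -1.12 in the middle frame and -0.90 over all codons tested, and 100 of the 104 values lay below 0. The count changed with the scaling. TMM normalization left 5 of the 93 middle frame codons tested called lower, with a median of -0.31 in the middle frame and -0.10 over all codons. Scaling to every count on the mRNA left 1, with medians of -0.29 and -0.08. DESeq2 called 46. Leaving out SECIS2 deletion 1 gave 27 and leaving out SECIS2 deletion 2 gave 23, while 53 were called without SECIS2 wild type 3. The shares called over all codons in these other fits are not given here, so their counts do not set the middle frame against the rest.

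For the largest fall in the SECIS2 line with no overlap between libraries, 5 codons were named. On codon 255 the counts were 29, 9 and 96 with SECIS2 (wild type) and 10, 12 and 9 without it (deletion), or occupancies of 0.349, 0.223 and 0.735 against 0.0773, 0.0871 and 0.0966. It fell by 2.38 in log2 units (SE 0.45, edgeR adjusted p = 0.00211). On codon 230 they were 112, 26 and 34 with SECIS2 and 13, 17 and 11 without it, and it fell by 2.70 (SE 0.53, adjusted p = 0.00321). Without SECIS2 wild type 3 codon 255 fell by 1.76. On the scale of codons 59 to 130 neither passed, with -1.17 at codon 255 and -1.37 at codon 230. The wild type spread at codon 230 was wide, with an occupancy of 1.35, 0.644 and 0.260.

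The other codons of the 5 rested on few counts. On codon 182 the counts were 14, 8 and 20 with SECIS2 and 6, 4 and 1 without it, and it fell by 2.46 (SE 0.53, edgeR adjusted p = 0.00469). Codon 138 held 9, 5 and 15 counts against 2, 1 and 6, and fell by 2.10 (SE 0.75, adjusted p = 0.0368). Codon 180 held 12, 4 and 5 counts against 0, 3 and 0. Its summed counts, 21 and 3, gave a ratio to upstream counts 9.92-fold lower in the deletion, with a 95% counting interval from 2.96 to 52.0 (edgeR adjusted p = 0.0291). Codon 138 did not pass without SECIS2 wild type 2 (-2.07), SECIS2 deletion 1 (-1.81) or SECIS2 deletion 2 (-1.59), and codon 180 did not pass without SECIS2 deletion 1 or 3.

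In the SECIS1 line 1 of the 104 codons tested (0.962%) was called lower and 0 higher, beside 14.7% lower and 0% higher of all 258 codons. At an unadjusted p under 0.05, 2 were lower and 3 higher. The median log2 change was 0.12 in the middle frame and 0.02 over all codons, and it was 0.69 and 0.58 when scaled to every count on the mRNA. The single call was codon 259 (first nucleotide 929), where wild type had 104, 119 and 95 counts and the deletion had 24 and 28. Its occupancy was 0.362, 0.742 and 0.787 against 0.191 and 0.249, with no overlap, and it fell by 1.51 in log2 units (SE 0.44, edgeR adjusted p = 0.0235). The value stayed negative but no longer passed without SECIS1 wild type 2 (-1.37, adjusted p = 0.0966), wild type 3 (-1.31, 0.0865), deletion 2 (-1.33, 0.291) or deletion 3 (-1.71, 0.104). Scaled to every count on the mRNA it was -0.91 (adjusted p = 0.212). The same codon had 54, 38 and 108 counts with SECIS2 and 62, 67 and 68 without it, a log2 value of -0.51 (SE 0.37, adjusted p = 0.267). The difference between both changes at codon 259 was -1.0 (SE 0.56, adjusted p = 0.173) on this scale.

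**Figure D4:**
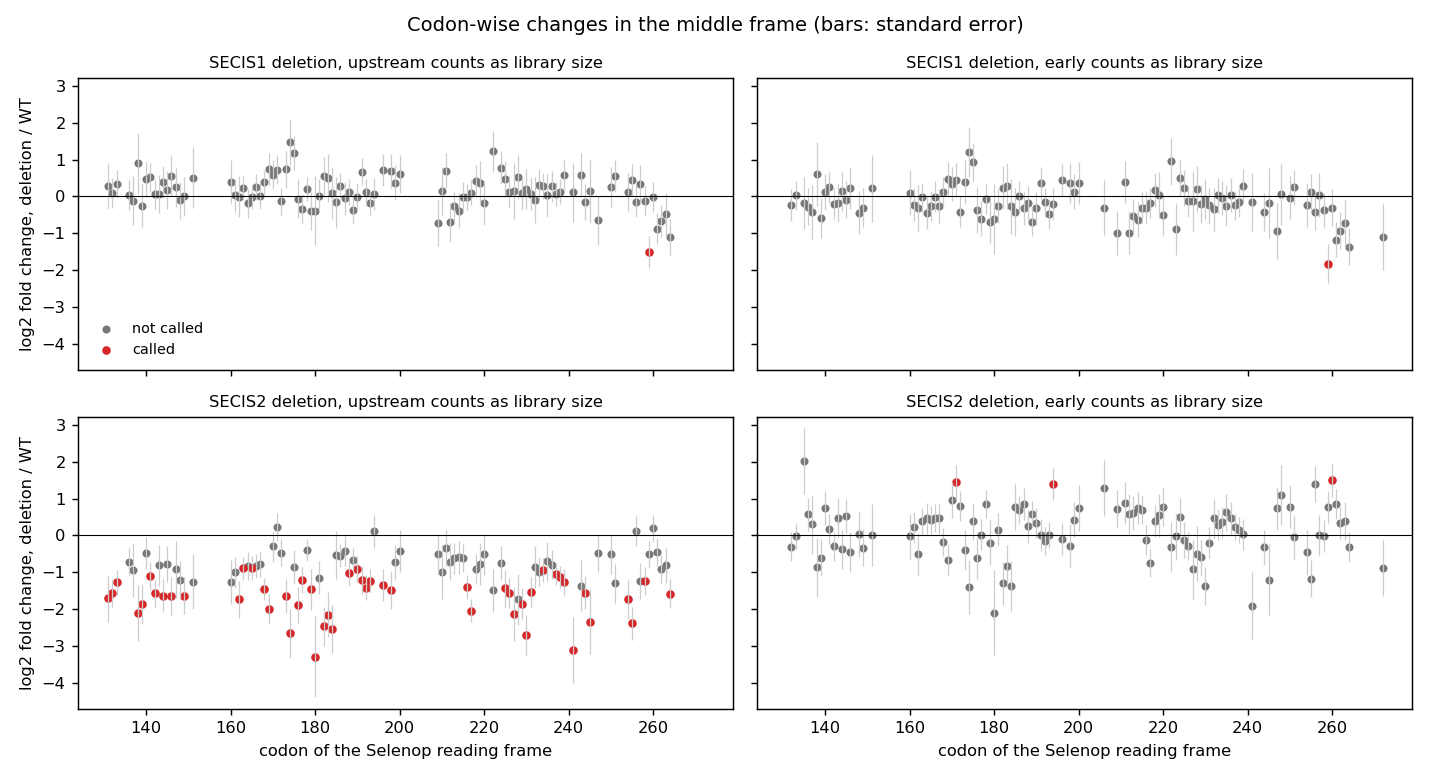
Log2 change, deletion over wild type, of each tested codon of the middle frame against codon number, for the SECIS1 deletion (top) and the SECIS2 deletion (bottom), with upstream counts (left) or the counts of codons 59 to 130 (right) as library size. Bars are the SE and red points passed an edgeR adjusted p of 0.05: with upstream counts 100 of 104 SECIS2 values lie below 0 and 50 are red, while in both SECIS1 panels codon 259 is the 1 red point.

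The change with the SECIS1 deletion minus the change with the SECIS2 deletion was tested in the same fit. It was called above 0 at 30 of the 104 codons (28.8%) and below 0 at 0, beside 19.8% and 11.6% of all 258 codons tested, with 50 codons at an unadjusted p under 0.05. The median was 1.16 in the middle frame and 0.82 over all codons. TMM normalization left 6 above and 1 below 0, and scaling to every count on the mRNA left 8 above. The count was 6 without SECIS1 deletion 2, 11 without SECIS1 deletion 3 and 18 without SECIS1 wild type 1. It was 13, 11 and 17 without SECIS2 deletion 1, 2 and 3, and 17 without SECIS2 wild type 2.

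The largest differences were at codons 174, 182, 230, 255 and 169. Codon 174 held 9, 7 and 4 counts in SECIS1 wild type, 13 and 11 in the SECIS1 deletion, 15, 2 and 18 in SECIS2 wild type, then 1, 1 and 5 in the SECIS2 deletion, a difference of 4.13 (SE 0.91, edgeR adjusted p = 0.0046). Codon 169 had the most counts of the 5 in SECIS2 wild type. It held 81, 56 and 40 in SECIS1 wild type, 78 and 50 in the SECIS1 deletion, 156, 31 and 89 in SECIS2 wild type, then 35, 37 and 28 in the SECIS2 deletion. Its difference was 2.73 (SE 0.58, adjusted p = 0.00453), from values of 0.74 (SE 0.43, adjusted p = 0.437) in the SECIS1 line and -1.99 (SE 0.40, adjusted p = 0.00349) in the SECIS2 line. Codons 182, 230 and 255, described above for their fall in the SECIS2 line, differed by 3.01, 2.91 and 2.82, and codon 230 did not pass without SECIS1 deletion 2 (2.75). With the counts of codons 59 to 130 as library size none of the 5 was called, with differences of 2.60 at codon 174, 1.53 at codon 182, 1.29 at codon 230, 1.30 at codon 255 and 1.13 at codon 169.

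Between the wild types, 4 codons (3.85%) were called lower in SECIS1 wild type and 1 (0.962%) higher, beside 3.88% and 0.775% of all codons tested. The lower ones were codons 169 (log2 -1.80, SE 0.39, edgeR adjusted p = 0.0193), 233, 238 (-1.26, SE 0.30, adjusted p = 0.0279) and 168 (-1.21, SE 0.29, adjusted p = 0.0279). Codon 194 was higher, with 129, 99 and 55 counts in SECIS1 wild type and 24, 6 and 10 in SECIS2 wild type (log2 1.58, SE 0.43, adjusted p = 0.0474). The count of 5 was 0 when the fit held the wild types alone and 16 without SECIS2 wild type 3. None of the 5 passed without SECIS1 wild type 1 or without SECIS1 wild type 2, and codons 233, 238, 168 and 194 did not pass without SECIS2 wild type 2. Codon 194 also did not pass without SECIS1 wild type 3 (1.65) or SECIS2 wild type 3 (1.14). Line and library number series stand behind each of these values.

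With the counts of codons 59 to 130 as library size, 105 codons of the middle frame were tested and few were called. In the SECIS1 line 1 was lower (16.2% of all 265 codons were called in either direction), again codon 259, which fell by 1.82 in log2 units (SE 0.52, edgeR adjusted p = 0.0179). With the SECIS2 deletion 3 were higher (17.0% of all), codons 171 (1.45, SE 0.46, adjusted p = 0.0347), 194 (1.40, SE 0.45, adjusted p = 0.0355) and 260 (1.51, SE 0.46, adjusted p = 0.0294). TMM normalization sets its own library size in place of this scale, so it is the fit given above, with 5 called lower. On this scale the median log2 change was -0.18 in the middle frame and -0.30 over all codons in the SECIS1 line, and 0.18 and 0.41 in the SECIS2 line. The difference between both changes was called at codons 259 (-2.59, SE 0.67, adjusted p = 0.00817) and 261 (-2.01, SE 0.63, adjusted p = 0.0224), beside 27.2% of all. The wild types differed at 2 codons, 172 and 194, both higher in SECIS1 wild type, beside 3.77% of all.

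Codon 260, next to 259, held 185, 143 and 105 counts in SECIS1 wild type, 112 and 76 in the SECIS1 deletion, 63, 40 and 145 in SECIS2 wild type, then 81, 136 and 156 in the SECIS2 deletion. Codon 261 held 200, 195 and 110, then 52 and 69, then 96, 17 and 137, then 75, 91 and 68 counts in the same groups. Occupancy at codon 261 was 0.695, 1.22 and 0.912 in SECIS1 wild type and 0.415 and 0.614 in the SECIS1 deletion, with no overlap. It was 1.15, 0.421 and 1.05 in SECIS2 wild type, against 0.580, 0.661 and 0.730 in the SECIS2 deletion, which overlapped.

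A scale made after the data were seen, the middle frame's own counts as library size, was used to compare codons within the stretch, of which 98 were tested. Codon 259 was again the 1 call of the SECIS1 line (log2 -1.60, SE 0.39, edgeR adjusted p = 0.00836), beside 15.9% of all 251 codons. With the SECIS2 deletion codons 171 (1.24) and 260 (1.18) were called higher and codons 217 (-1.01) and 230 (-1.66) lower, beside 13.5% of all. On codon 217 the counts were 136, 67 and 212 with SECIS2 and 44, 45 and 50 without it. The difference between both changes was called at 2 codons, 174 (3.01) and 259 (-2.12), beside 22.7% of all, and at 4 with the replicate number as a block. The wild types differed at codons 172 (1.51) and 194 (2.01), beside 3.59% of all. On this scale each count is relative to the stretch itself, so a shift shared by all of its codons is removed by construction.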

How the data were processed

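RNase I footprints of liver polysomes, about 30 nt long, were sequenced per the labels' protocols, and the submitters' processing notes name Bowtie, without a version, and the build mm9. The deposited A-site counts are raw counts per nucleotide. Per the file headers, the authors' ratio divides A-site counts relative to mapped footprints by Selenop RNA reads relative to mapped RNA reads, and within a library it equals the counts times a constant. The A-site assignment rule is not given in the sources used. The 12 libraries were grouped by title, and 1 stayed ungrouped.

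Members and lists were chosen with earlier results of these data known. Density is the mean count per position. For codon counts, the quasi-likelihood test of edgeR 4.0.16 ran under R 4.3.3 (4 groups, filterByExpr, Benjamini-Hochberg over all codons), and DESeq2 1.42.0 was an alternative. Scripts were tested on simulated data. Exact permutation tests were two-sided, and labels were permuted within each line for the difference between changes. SE of group values come from the spread between libraries.

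Named codons were the 8 highest in wild type, up to 5 per direction with the largest change among called codons whose libraries did not overlap (no overlap was asked of the difference), and the edges. Other codons, those called on the other scales among them, were named after their values were seen. Deviations from group means correlated at 0.438, 0.187 and 0.174 for same-numbered SECIS2 libraries, and at -0.164 and -0.106 in the SECIS1 line. For SECIS2 libraries with unlike numbers they ran from -0.264 to 0.107. Whether the numbers pair samples was not tested, and the main fits held no block. Histidine codons were not analysed here for want of a transcript sequence.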

Additional observations from a re-analysis of the deposited data

Results flagged for a closer look

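The responses to the 2 deletions differed at single codons by the test of the difference itself. Against upstream counts, edgeR called 30 codons of the middle frame at an adjusted p of 0.05, all above 0, beside 19.8% above and 11.6% below 0 of all codons tested. With the counts of codons 59 to 130 as library size it called 2, both below 0, beside 27.2% of all in either direction. With the middle frame's own counts it called 2, 1 above and 1 below 0, beside 22.7%. The direction of the calls thus changed with the scale. The codons named on the upstream scale, with the change in the SECIS1 line minus that in the SECIS2 line on the log2 scale, were 174 (4.13), 182 (3.01), 230 (2.91), 255 (2.82) and 169 (2.73). Codons 174 and 182 held 26 counts or fewer in every library. Part of the difference between lines cannot be told apart from the library number series.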

How the results depend on the processing

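Density over upstream density, density over that of codons 59 to 130 and the authors' ratio moved by less than 1 SD of the log2 values between libraries under every alternative run. The authors' ratio between wild types went from 0.189 to 0.317 with the 5 highest positions left out, and density over that of codons 59 to 130 in the SECIS1 line turned from -0.164 to 0.0516 without SECIS1 deletion 3. Counts of called codons moved, and for the alternatives the shares called over all codons are not given here. All numbers here are codons called in the middle frame by edgeR unless another tool is named, for SECIS1, SECIS2, the difference between both changes and the wild types in turn. On upstream counts the main values were 1, 50, 30 and 5. TMM gave 5 for SECIS2, 7 for the difference and 3 for the wild types, all counts on the mRNA gave 4, 1, 8 and 1, and first frame positions alone gave 23, 7 and 0 for the last 3. Fitting only the compared groups gave 2 for SECIS1 and 0 for the wild types. Leaving out 1 library gave 0 to 1, 23 to 53, 6 to 39 and 0 to 16.

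On counts of codons 59 to 130 the main values were 1, 3, 2 and 2. TMM (5 for SECIS2, 7 for the difference) and all counts on the mRNA (4, 1, 8 and 1) set their own library size. They are the same fits as those given for upstream counts, not further ones. The compared groups alone gave 2 for SECIS1, 1 for SECIS2 and 0 for the wild types. No filter gave 1 for SECIS2 and 4 for the difference, DESeq2 gave 4 for the difference and 7 for the wild types, and the replicate block gave 2 for SECIS1. Leaving out 1 library gave 0 to 2, 0 to 5, 0 to 7 and 1 to 9. On the middle frame's own counts the main values were 1, 4, 2 and 2. Here too all counts on the mRNA (4, 1, 8 and 1) and TMM (7 for the difference) were those same fits. The compared groups alone gave 2 for SECIS1, 0 for SECIS2 and 0 for the wild types, and no filter gave 2 for SECIS2. First frame positions gave 0, 1 and 1 for the last 3. DESeq2 gave 10 for the wild types, and the replicate block gave 2 for SECIS1 and 4 for the difference. Leaving out 1 library gave 0 to 1, 0 to 8, 0 to 7 and 0 to 12. The cause was not tested.

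Values that passed no test changed sign. With the 5 highest positions left out, the first position share differed by -2.34 points with SECIS2 and -0.639 between wild types, and with the replicate block the difference between changes was -0.860. With 1 library left out it ran from -3.49 to 5.39 with SECIS2, -3.34 to 5.55 for the difference and -4.04 to 4.85 between wild types. The log2 ratio of later to earlier codons ran from -0.147 to 0.0196 with SECIS1, -0.117 to 0.115 with SECIS2 and -0.178 to 0.0539 for the difference. The share on the 10 highest codons ran from -1.21 to 3.37 points with SECIS2 and from -1.86 to 2.72 for the difference. Of 624 values of named codons under alternatives, 520 kept their side of the threshold, 95 kept direction but no longer passed, 9 newly passed and 0 changed sign with a call. In the SECIS2 line the replicate block gained codon 233 and left the count at 54. The alternatives for histidine codons were not run. Low counts limit single codons: at 23.6 counts per codon in the shallowest library, a change at an uncalled codon is not excluded.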

Other observations

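The library with no group in its title, whose column heading reads Secis1 Del, held 27317 counts on the mRNA and 9653 in the middle frame, or 35.3%. Its middle frame density was 0.393 of its upstream density and 0.729 of that of codons 59 to 130, and its summed ratio from the authors' deposited table was 0.123. Codons 202 to 272 held 0.625 of the counts of codons 131 to 201, and 62.0% of counts lay in the first position of the codon. Its 10 highest codons took 39.8% of middle frame counts. It held 468 counts at codon 233 and 44 at codon 259, where its occupancy was 0.254. In codons 261 to 270 its mean occupancy was 0.0694. Codon 272 held 1 count and codon 273 held 5.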
